A study of Mus musculus with 6 samples.

Results

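Cd74 and the MHC class II genes are described here in cochlear tissue of 12-month-old mice with and without the Cmah gene. The set has 10 genes, namely Cd74, H2-Aa, H2-Ab1, H2-Eb1, H2-DMa, H2-DMb1, H2-DMb2, H2-Oa, H2-Ob and Ciita, and every probe that carries one of these symbols was taken, which gave 13 of the 25697 probes of the array and 10 of its 18138 gene symbols. The genes were chosen by the measured difference in signal between the genotypes on these same arrays, which was large for Cd74 and some class II genes. Their differences are therefore given as a description, with a standard error and no p. Each SE of a difference is the moderated one of limma, which draws the variance of a probe towards a value shared by all probes. It therefore differs from an SE computed from the printed SDs and can be smaller.

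Cmah encodes the enzyme that makes the sialic acid Neu5Gc from Neu5Ac, and the Cmah-null mice carry the tm1Ykoz knockout, which acts in every tissue of the animal. Both groups, WT and Cmah-null, were 12 months old with a C57BL/6 background, which the study's methods name as C57BL/6J, and no treatment or sex is given for either. RNA of whole cochlear tissue from 3 WT and 3 Cmah-null samples was hybridized to Illumina MouseRef-8 v2 arrays, 1 array per sample. The methods give 3 mice per group, while the sample records do not tie each sample to an animal of its own, so the spread between samples may be partly technical. In bulk tissue, fewer cells of a type and less RNA per cell cannot be told apart.

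MHC class II molecules are pairs of an alpha and a beta chain that carry peptides from engulfed proteins to the surface of B cells, macrophages and dendritic cells, where CD4 T cells read them. Cd74, the invariant chain, binds new alpha and beta chains, blocks their groove and guides them to endosomes. There it is cut down to a short peptide, which H2-DM removes so that other peptides can bind, while H2-O holds H2-DM back. Ciita switches on these genes together by docking on proteins bound to the X and Y boxes of their promoters, and resident macrophages are known class II cells of the cochlea.

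Promoter stretches are shown first, because the X and Y boxes are the elements through which Ciita is known to act, and they were searched for in each member with a window. RefSeq promoter windows of build GRCm38.p6, from 250 bases before to 50 bases after the start, were matched for 7 of the 10 genes. Cd74, H2-Ab1 and Ciita had no entry. In the stretches of 60 bases below, 5′ to 3′ on the strand of the gene, capitals mark ATTGG, the core of the Y box, and AACNNNTG, a part of the X box.
H2-Eb1, chr17:34305763-34305822, plus strand: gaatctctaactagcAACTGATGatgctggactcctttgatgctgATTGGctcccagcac
H2-DMb1, chr17:34153085-34153144, plus strand: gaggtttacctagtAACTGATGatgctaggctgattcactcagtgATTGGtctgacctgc
H2-DMb2, chr17:34145114-34145173, plus strand: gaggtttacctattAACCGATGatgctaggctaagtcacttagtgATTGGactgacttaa
H2-Ob, chr17:34238803-34238862, plus strand: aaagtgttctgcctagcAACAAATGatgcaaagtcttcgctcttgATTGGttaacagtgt
H2-Oa, chr17:34092291-34092350, plus strand: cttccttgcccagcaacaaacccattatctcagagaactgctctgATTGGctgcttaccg
H2-Aa, chr17:34287857-34287916, minus strand: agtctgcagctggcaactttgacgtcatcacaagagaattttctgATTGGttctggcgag

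In 4 of these genes, H2-Eb1, H2-DMb1, H2-DMb2 and H2-Ob, AACNNNTG was followed by ATTGG with 20 to 23 bases between them, where 10 to 30 had been allowed. On either strand, that order was found in 265 of the 32851 promoter windows of the table, or 0.807%, while ATTGG alone was found in 37.4% and AACNNNTG alone in 35.6%. The windows of H2-Oa and H2-Aa held ATTGG without this order. Other forms of the X box were not searched for, so this does not show that these promoters lack an X box. The table has 2 windows for H2-DMa, and neither held the order. The stretches of H2-DMb1 and H2-DMb2, neighbouring genes for the beta chain of H2-DM, were alike at 51 of 60 bases. Of the 4 genes with the order, H2-Eb1 and H2-DMb1 were detected on 6 arrays, H2-Ob on 5 and H2-DMb2 on 0.

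Probes were called detected on an array where the detection p, which sets the signal against negative controls, was under 0.05. By this rule 9 of the 13 probes, of 6 genes, were detected on 6 arrays, 2 on some arrays and 2 on 0. Values below are log2 signals after quantile normalization, which gives every array the same distribution, and they rank arrays for a probe but not probes against each other. In limma over all 25697 probes, no probe had an adjusted p under 0.05 (the smallest was 0.250), 2199 had an unadjusted p under 0.05, and a variance prior with trend and robust estimation also gave 0. Between 13873 and 15223 probes were detected per array. Cmah-null replicates 1 and 2 resembled each other more than any other pair did, with an SD of their log2 difference over probes of 0.138 against 0.391 to 0.851. The probe for Cmah (ILMN_2606825) was detected on 1 WT and 2 Cmah-null arrays near background, so it cannot check the genotype.

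Cd74 had the largest difference among the members. With the probe ILMN_1221817, on chromosome band 18qE1, the log2 signal was 10.86, 10.34 and 11.48 in WT replicates 1 to 3 and 12.51, 12.66 and 13.80 in Cmah-null replicates 1 to 3. All Cmah-null arrays lay above all WT arrays, and the closest arrays of the groups, WT replicate 3 and Cmah-null replicate 1, were 1.03 apart, while the WT arrays spread over 1.14. The means were 10.89 ± 0.57 (SD, n = 3) and 12.99 ± 0.71 (SD, n = 3), a difference of 2.10 ± 0.44 (SE), or 4.27-fold.

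The other Cd74 probe, ILMN_3089584, gave 10.77, 10.21 and 11.40 in WT and 12.29, 12.61 and 13.12 in Cmah-null samples. It showed the same order of the arrays, with WT replicate 2 lowest and Cmah-null replicate 3 highest, and a difference of 1.88 ± 0.35 (SE), or 3.68-fold. The file places the 2 probes on different transcript records of the gene, and both read the same 6 samples, so they repeat the reading and not the samples. The standard error among the beads of a Cd74 probe on an array was 0.03 to 0.07 on the log2 scale, under the differences between the arrays of a group.

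The arrays also fell into sets by the number of beads per probe, with a median of 32 to 34 on WT replicate 1 and Cmah-null replicates 1 and 2, and of 38 or 39 on the other 3. Within the first set the Cd74 difference with ILMN_1221817 was 1.73, and within the second it was 2.89. Each set left 1 array of a genotype, WT in the first and Cmah-null in the second, and since all Cmah-null arrays lay above all WT arrays the sign was fixed beforehand.

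The class II genes of the set lie together in chromosome band 17qB1, and among the class II chains H2-Ab1 encodes the beta chain of the I-A molecule. Its probe ILMN_1226525 had log2 signals of 11.06, 11.37 and 12.35 in WT and 13.14, 12.98 and 13.04 in Cmah-null samples. The 3 Cmah-null arrays lay within 0.16 of each other, while the WT arrays spread over 1.29 and their highest, replicate 3, stayed below all Cmah-null arrays. The difference was 1.46 ± 0.33 (SE, n = 3 and 3), or 2.75-fold.

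H2-Eb1, the beta chain of the I-E molecule, had 9.98, 10.42 and 11.51 in WT and 11.85, 11.83 and 11.52 in Cmah-null samples. The groups did not overlap, but WT replicate 3 and Cmah-null replicate 3 differed by 0.01, and the difference of the means was 1.10 ± 0.39 (SE), or 2.15-fold. H2-Ea, the alpha chain that would pair with it, is defective in the C57BL/6 haplotype and was not taken as a member. Its probe was detected on 0 arrays.

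H2-Aa, the alpha chain that pairs with the H2-Ab1 product, had 9.57, 11.05 and 11.90 in WT and 11.18, 10.98 and 9.84 in Cmah-null samples. WT replicate 1 and Cmah-null replicate 3 were low, WT replicate 3 was high, and the groups overlapped over most of their range. The difference was -0.17 ± 0.66 (SE), and it turned to 0.29 with the arrays scaled to a common median. That scaling moved the median of probes detected on 6 arrays from 0.03 to 0.30, and less this median the difference was -0.01. Without that scaling, the difference was 1.51 within the set of arrays with fewer beads and -1.64 within the set with more beads.

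**Figure D1:**
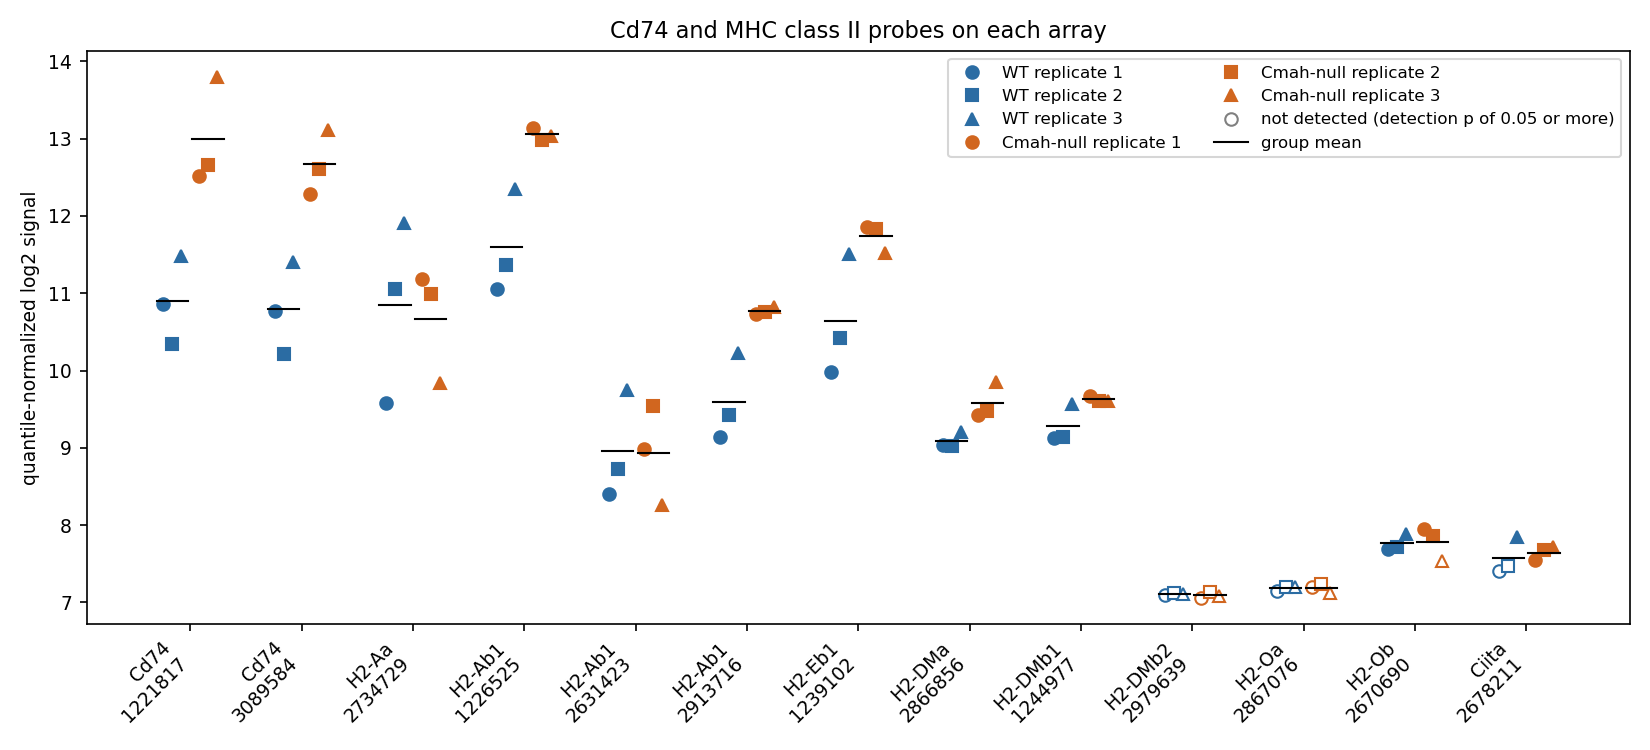
Quantile-normalized log2 signal (vertical axis) of each of the 13 probes, named by gene and probe number (horizontal axis), on 3 WT and 3 Cmah-null arrays, where open symbols are arrays without detection and bars are group means. For Cd74 all Cmah-null arrays lie above all WT arrays, for H2-Aa the groups overlap, and H2-DMb2 and H2-Oa are open on all 6 arrays.

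The 3 probes of H2-Ab1 did not give the same difference. Those that lie in coding sequence are printed, because they read the same RNA and gave different results (5′ to 3′, 50 bases each, no letters marked).
ILMN_2631423, first base 180 of the transcript record: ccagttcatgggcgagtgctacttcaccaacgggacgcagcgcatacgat
ILMN_2913716, first base 732 of an earlier version of that record: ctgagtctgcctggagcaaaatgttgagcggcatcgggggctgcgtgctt

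The probe at base 180 lies in the part that codes for the peptide-binding domain, which varies between mouse strains, and the probe at base 732 near the part for the membrane-spanning segment. The probe ILMN_1226525, described above, starts at base 898 of the same version as the probe at base 180. No other probe of the array had the sequence of any of these.

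With ILMN_2913716, the log2 signal of H2-Ab1 was 9.13, 9.43 and 10.23 in WT and 10.73, 10.76 and 10.82 in Cmah-null samples, a difference of 1.17 ± 0.28 (SE), or 2.25-fold. With ILMN_2631423 it was 8.40, 8.72 and 9.75 in WT and 8.98, 9.54 and 8.26 in Cmah-null samples. The groups then overlapped, Cmah-null replicate 3 was the lowest of the 6 arrays, and the difference was -0.03 ± 0.46 (SE). It turned to 0.28 with the arrays scaled to a common median, and was -0.02 less the median of probes detected on 6 arrays.

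Because each array carries all of these probes, they can be subtracted within an array, which removes any shift of the whole array. The size of such a difference says nothing by itself, since probes differ in brightness, but it can be compared between arrays. The log2 signal of the probe at base 898 minus that at base 180 was 2.66, 2.65 and 2.60 in WT and 4.16, 3.44 and 4.77 in Cmah-null samples. The WT arrays lay within 0.06 of each other and all Cmah-null arrays lay above them, a shift of 1.49 between the group means. For the probe at base 732 minus that at base 180, the values were 0.73, 0.71 and 0.48 in WT and 1.75, 1.22 and 2.55 in Cmah-null samples, a shift of 1.20. Between the probes at bases 898 and 732 the shift was 0.29.

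Over all genes, 3021 pairs of probes of 1 gene were detected on 6 arrays, and the median size of the shift was 0.14 and its 95th percentile 0.59. A shift of at least 1.20, the smaller of the 2 H2-Ab1 shifts, was found in 10 pairs, or 0.331%, of 8 genes. Both H2-Ab1 pairs are among them by this choice of cut. The gene was also chosen by its difference on these arrays, so the share is only a description. Groups of within-array differences that did not overlap were common, at 16.2% of pairs. With neqc, which subtracts background, the within-array differences against the probe at base 898 ran from 2.81 to 3.30 in WT and from 3.71 to 5.58 in Cmah-null samples. For Cd74 the shift between its probes was 0.22.

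**Figure D2:**
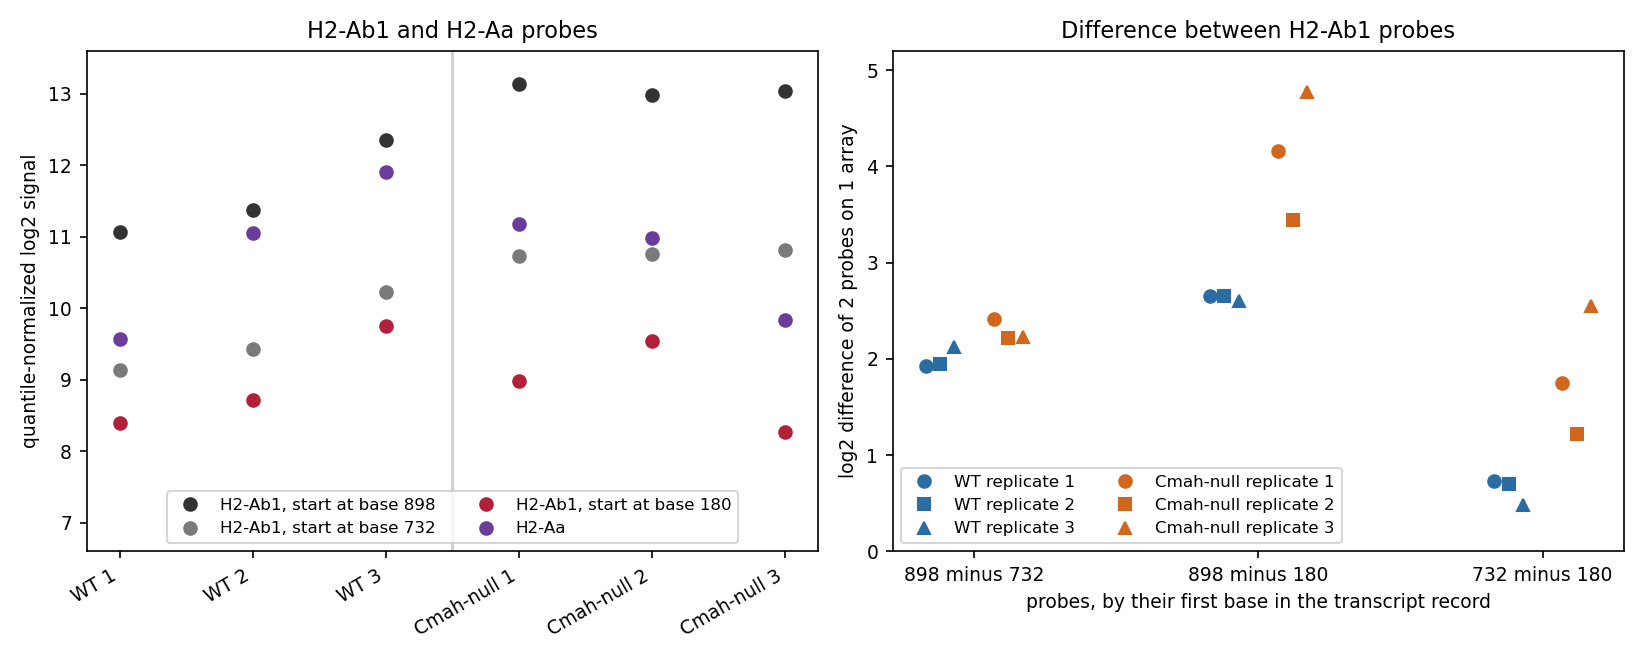
Left, log2 signal of 3 H2-Ab1 probes, named by their first base in the transcript record, and of the H2-Aa probe on each of the 6 arrays. Right, difference of log2 signal between pairs of H2-Ab1 probes on the same array, where the pairs with the probe at base 180 run from 0.48 to 2.66 in WT and from 1.22 to 4.77 in Cmah-null samples and the third pair from 1.93 to 2.41.

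The chains of the peptide exchange factor H2-DM had smaller differences. H2-DMa, its alpha chain, had log2 signals of 9.03, 9.02 and 9.20 in WT and 9.43, 9.47 and 9.85 in Cmah-null samples. The groups did not overlap and the difference was 0.50 ± 0.14 (SE), or 1.41-fold. H2-DMb1, a beta chain, had 9.13, 9.14 and 9.57 in WT and 9.67, 9.60 and 9.60 in Cmah-null samples. The difference was 0.35 ± 0.14 (SE), or 1.27-fold, and WT replicate 3 lay 0.03 below the lowest Cmah-null array. The probe for H2-DMb2, the other beta chain, was detected on 0 arrays and is given no fold change.

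H2-Ob, the beta chain of the H2-DM inhibitor H2-O, had 7.70, 7.71 and 7.89 in WT and 7.95, 7.87 and 7.53 in Cmah-null samples, and Cmah-null replicate 3 was the array without detection. The groups overlapped, with a difference of 0.02 ± 0.13 (SE) that fell below 0 with the number of beads as a block. The probe for H2-Oa, the alpha chain of H2-O, was detected on 0 arrays.

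Ciita, the class II transactivator, lies in chromosome band 16qA1 and had 7.40, 7.47 and 7.85 in WT and 7.55, 7.68 and 7.71 in Cmah-null samples and was detected on WT replicate 3 and the 3 Cmah-null arrays. The groups overlapped, and the difference was 0.07 ± 0.14 (SE), and it fell below 0 without WT replicate 1. The signal was close to background on all arrays, which narrows any difference on this scale.

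**Figure D3:**
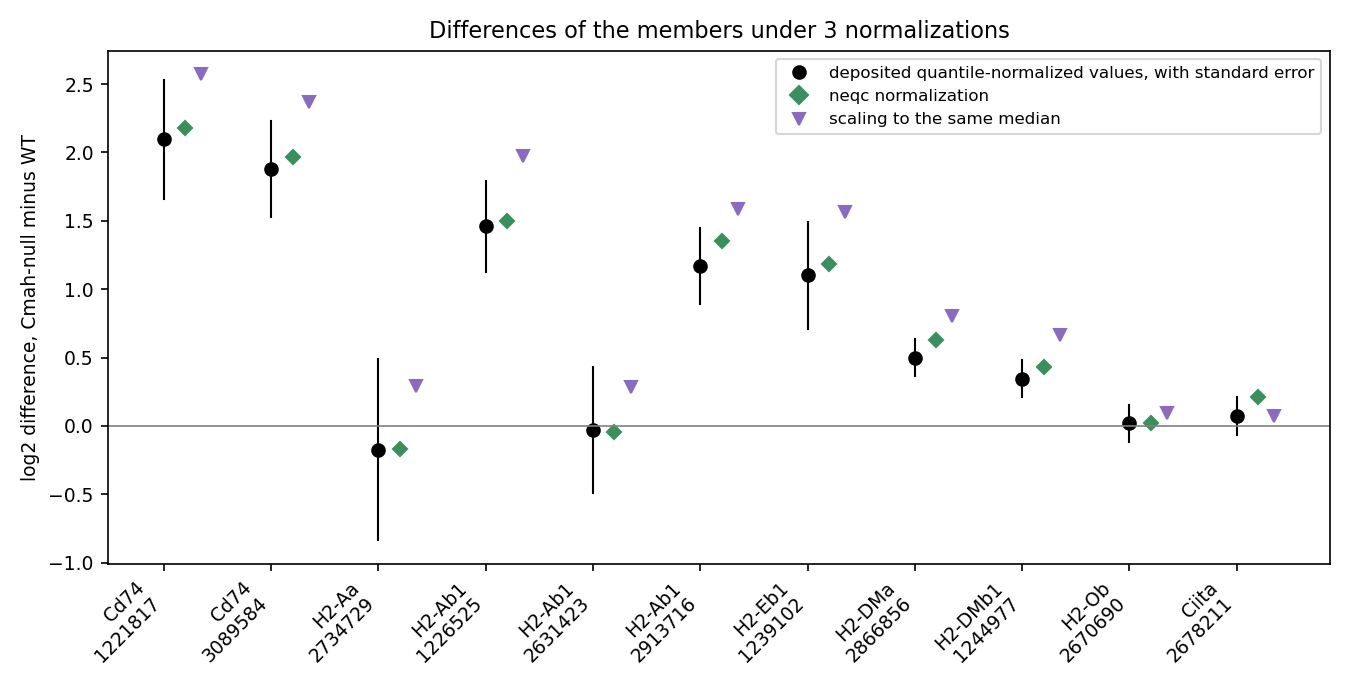
Difference of log2 signal, Cmah-null minus WT (vertical axis), of the 11 member probes detected on at least 3 arrays. Circles with moderated standard errors are the deposited normalized values and the other symbols are 2 other normalizations, under which Cd74 lies between 1.88 and 2.57 and H2-Aa between -0.17 and 0.29. Scaling to the same median moves the median of probes detected on 6 arrays to 0.30.

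Taking the set as a whole, 7 of 13 member probes, of 5 genes, had all Cmah-null arrays above all WT arrays and 0 had them below, where 9.11% of all probes had them above and 7.33% below. All 7 were detected on 6 arrays, and among all probes so detected 11.5% lay above and 7.86% below. Since this contrast chose the genes, nothing is read from this count. By the brightest probe of each gene, 8 genes had a difference above 0 and 2 below, where 50.5% of all probes were above 0, and the median was 0.21, against 0.002 over all probes. These counts include H2-Oa above 0 and H2-DMb2 below 0, both detected on 0 arrays, so their direction carries no meaning.

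The arrays themselves ranked alike for many members. WT replicate 3 was the highest WT array for 9 of the 9 probes detected on 6 arrays, and WT replicate 1 the lowest WT array for 6 of them. Among Cmah-null arrays, replicate 3 was highest for 4 probes and lowest for 3. Cd74 and H2-Aa thus differed in their order, since Cmah-null replicate 3 had the highest signal of all arrays for Cd74 and the lowest Cmah-null signal for H2-Aa.

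The pattern of Cd74 over the 6 arrays was set against 12408 other probes detected on 6 arrays by the root mean square of the differences between log2 values, each less its own mean. The probes most like it, members left out, were of Aqp3 (0.484), Socs3 (0.504), Dsp (0.524), Fkbp5 (0.524) and Per2 (0.535), where Cd74 itself varied by 1.17 about its mean. Aqp3, a water and glycerol channel, had 8.83, 8.94 and 10.29 in WT and 10.19, 10.37 and 11.33 in Cmah-null samples. The member probes ranked lower, H2-Ab1 at 16 with ILMN_1226525, H2-Eb1 at 252, H2-DMa at 785 and H2-Aa at 11356. With 6 arrays and the contrast shared, this is a description of likeness.

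Other genes of the class II pathway were taken from lists, by the brightest probe of each gene, and called where the change was at least 1.5-fold and its unadjusted p was under 0.05. Medians and counts above and below 0 include genes detected on 0 arrays, whose direction carries no meaning. Such genes were 4 of the interferon gamma list, 4 of costimulation, 3 of T cells, 2 of B cells and 2 of the neighbours in the class II region. Of all probes 1.3% were so called higher and 1.41% lower, of probes detected on 6 arrays 2.51% and 2.64%, and an adjusted p under 0.05 was found for 0% of probes. Of 9 genes of class II loading and invariant chain processing, such as the cathepsins, 0 were called, and their median difference was -0.24, with 3 above 0 and 6 below. Of 9 genes for the transcription factors that work with Ciita, 0 were called and the median was 0.01. Rfx5 and Nfya, which bind the X and Y boxes, were detected on 0 arrays.

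Interferon gamma is the main inducer of Ciita. Of 15 genes of its signalling and targets, 0 were called higher and 1 lower, and the median was -0.000827 with 7 genes above 0 and 8 below. The gene called lower was Ifngr2, a chain of the interferon gamma receptor, with log2 signals of 10.31, 11.13 and 11.36 in WT and 10.14, 10.26 and 10.22 in Cmah-null samples. All Cmah-null arrays lay below all WT arrays, with a difference of -0.73 ± 0.27 (SE). It was no longer called in 9 of 14 other settings, among them median scaling and leaving out any array but WT replicate 1. Without Cmah-null replicate 3, Gbp2, Gbp3 and Igtp, targets of the cytokine, were called higher, where 415 of all 25697 probes were called higher and 467 lower. Gbp3 had 9.55, 9.41 and 9.31 in WT and 10.58, 10.58 and 8.85 in Cmah-null samples, so that array lay below all WT arrays and the other Cmah-null arrays above them. Ifng itself was detected on 0 arrays.

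Of 10 genes of costimulation between class II cells and T cells, 1 was called higher and 0 lower, with a median of 0.02. It was Icam1, an adhesion molecule, with 8.94, 9.42 and 9.82 in WT and 10.04, 9.96 and 10.48 in Cmah-null samples, a difference of 0.77 ± 0.26 (SE) without overlap. The call was lost without WT replicate 1, WT replicate 2 or Cmah-null replicate 3. Cd74 is also a surface receptor for the cytokine MIF. Of 6 genes of MIF and its receptors 1 was called higher, Il8rb, a chemokine receptor, which was detected on 0 WT arrays and 3 Cmah-null arrays and was at least 1.41-fold higher with each WT array at its lowest detected signal. That call was lost when any WT array or Cmah-null replicate 3 was left out. Under median scaling, which called 2409 of all 25697 probes higher and 79 lower, Cd44 and Mif were called in its place. Mif had a difference of 0.30 ± 0.17 (SE) with overlapping groups.

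Genes near the members and genes of the class I pathway allow a comparison with the surroundings of the class II genes. Of 9 neighbours in the class II region, such as Tap1 and Psmb9, 0 were called, 7 were above 0 and 2 below, with a median of 0.26. Of 9 genes of class I presentation, 3 of them shared with the neighbours, 0 were called, 8 were above 0 and 1 below, with a median of 0.16. No gene of these lists had an adjusted p under 0.05.

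Markers of the cells that carry class II were measured beside the members, and their part in the differences was not tested. Summed signals below are on the linear scale, over the genes of a list detected on at least 3 arrays. Of 9 macrophage genes, all detected on 6 arrays, 0 were called, 8 were above 0 and 1 below, with a median of 0.39, and their summed signal ran from 4866 to 6984 in WT and from 5637 to 8857 in Cmah-null samples. Among their defining markers, Cd68 was higher by 0.39 ± 0.11 (SE) without overlap, with 8.73, 9.005 and 8.93 in WT and 9.30, 9.39 and 9.16 in Cmah-null samples. Csf1r had 0.08 ± 0.27 and C1qa 0.32 ± 0.27 (SE), both with overlap. Median scaling called 3 macrophage genes higher, where it called 2409 of all 25697 probes higher and 79 lower. Leaving out Cmah-null replicate 3 called 2 higher, and leaving out WT replicate 3 or Cmah-null replicate 1 called 1. Without WT replicate 1, Emr1, the macrophage gene below 0, was called lower. Its difference with all arrays was -0.41 ± 0.52 (SE), with overlap.

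Of 9 B cell genes 0 were called, 4 were above 0 and 5 below, with a median of -0.01 and a summed signal from 1357 to 2259 in WT and from 1464 to 1941 in Cmah-null samples. Ms4a1, a defining marker of these cells, was detected on 0 arrays, but other genes of the list were detected on 6. Among them Cd79b, a chain of the B cell receptor, had 8.82, 9.28 and 8.04 in WT and 8.13, 8.17 and 7.69 in Cmah-null samples, a difference of -0.72 ± 0.33 (SE) with overlap. It was called lower with the replicate block and with the other variance prior, and without WT replicate 3 it and Fcrla were called. Of 9 dendritic cell genes 0 were called, 5 were above 0 and 4 below. Of these genes 6 were detected on 0 arrays, so most of these directions carry no meaning. The 3 detected genes had a median difference of -0.09 and a summed signal from 986 to 1572 in WT and from 991 to 1324 in Cmah-null samples. Itgax, Flt3 and Ccr7, their defining markers, were detected on 0 arrays.

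Of 9 T cell genes 0 were called, 8 were above 0 and 1 below, with a median of 0.17 and a summed signal from 8182 to 15447 in WT and from 13952 to 15428 in Cmah-null samples. Thy1, which neurons also express, made up 85.05% to 93.8% of that sum on each array, and without it the sum ran from 960 to 1224 in WT and from 1290 to 1497 in Cmah-null samples. Cd3e, part of the T cell receptor complex, had 7.63, 7.79 and 8.01 in WT and 8.14, 8.06 and 9.29 in Cmah-null samples, without overlap. Cd3d had a difference of 0.08 ± 0.25 and Cd3g of 0.17 ± 0.16 (SE), both with overlap. Cd3e was called higher under median scaling, without normalization and with the replicate or bead block. Thy1 was called higher under median scaling, without normalization and without WT replicate 1. Lck, with a difference of 0.32 ± 0.12 (SE) without overlap, was called higher with neqc. Over all probes these settings called 379 to 2501 higher and 56 to 873 lower. Cmah-null replicate 3, the array with the highest Cd74 signal, had the highest Cd3e signal and the lowest Cd3d signal of the 6 arrays.

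Of 9 neutrophil and marrow genes 0 were called, 6 were above 0 and 3 below, with the highest median of the lists, 0.69, and a summed signal from 81801 to 112884 in WT and from 86341 to 100431 in Cmah-null samples. Ltf, at a log2 signal of 15.92 to 15.99 on every array, made up 56.1% to 79.7% of that sum, and without it the sum ran from 16631 to 49507 in WT and from 22458 to 37199 in Cmah-null samples. Ngp had a difference of 0.69 ± 0.46, S100a8 of -0.33 ± 0.70 and S100a9 of -0.03 ± 0.54 (SE), all with overlap. Under median scaling, and also without WT replicate 2, 4 genes of this list, Lcn2, Mpo, Prtn3 and Retnlg, were called higher. Over all 25697 probes, median scaling called 2409 higher and 79 lower, and leaving out WT replicate 2 called 191 higher and 238 lower. Of 9 cochlea genes 0 were called, 6 were above 0 and 3 below, and the summed signal ran from 9256 to 18908 in WT and from 9475 to 15373 in Cmah-null samples. The defining markers Coch, Otos and Tecta were detected on 6 arrays, with differences of -0.64 ± 0.59, -0.65 ± 0.61 and 0.16 ± 0.18 (SE), while Slc26a5, the motor protein of outer hair cells, was detected on 0.

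**Figure D4:**
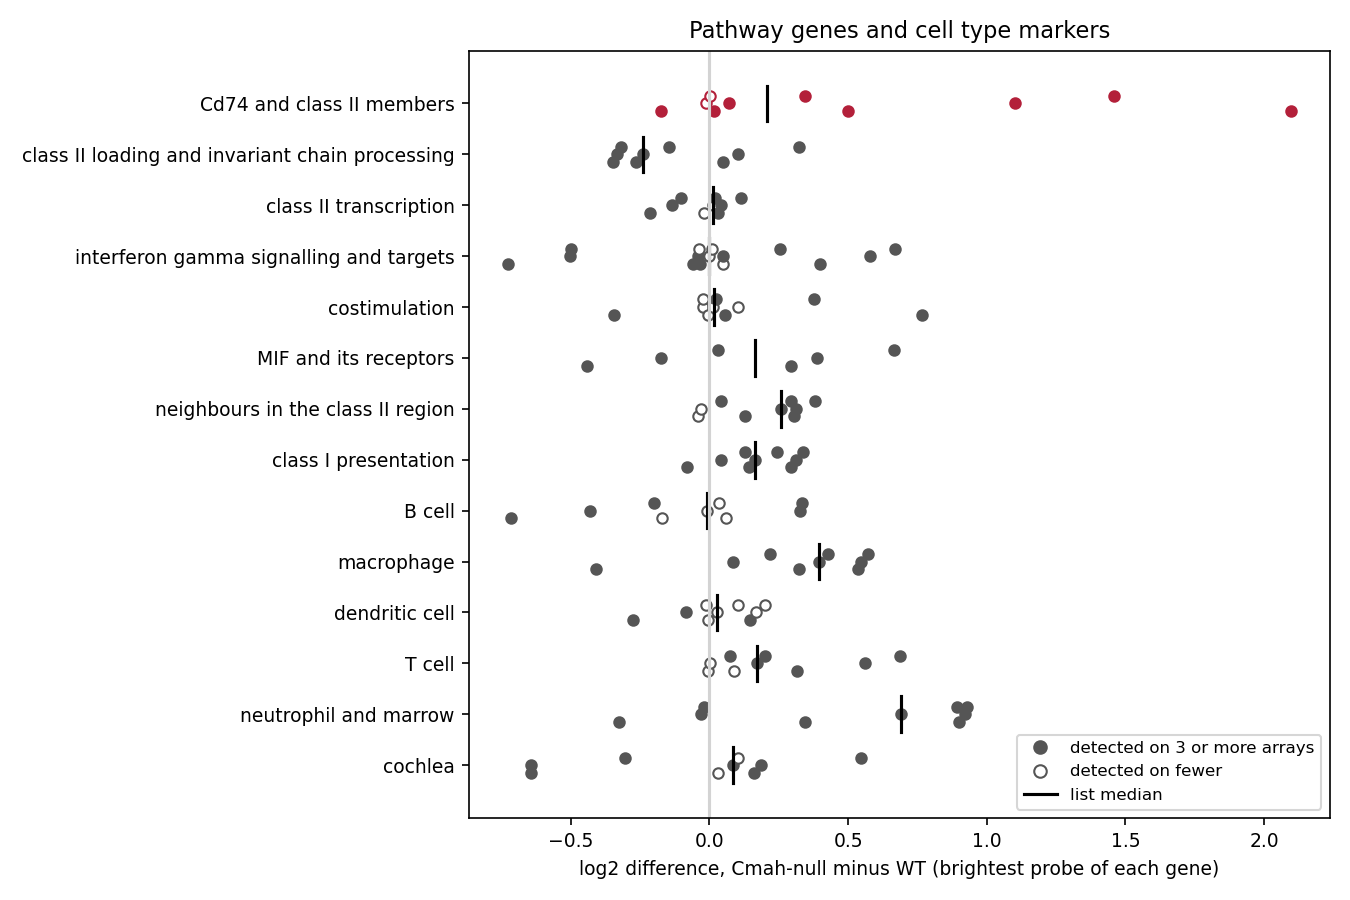
Difference of log2 signal, Cmah-null minus WT, by the brightest probe of each gene (points) for the 10 members and the genes of 13 lists (rows), with the list median as a bar and open points for genes detected on fewer than 3 arrays. Cd74, H2-Ab1 and H2-Eb1, at 2.10, 1.46 and 1.10, lie beyond every point of the other lists, but the members were chosen by this difference, so nothing is read from it. The H2-Ab1 probe at base 180, at -0.03, is not drawn, and the macrophage median is 0.39.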

How the data were processed

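The authors deposited the raw bead intensity, its bead standard error, the count of beads and a detection p-value of each probe, per the file headers exported by Illumina software without background subtraction. The authors' other table gave normalized log2 values, and quantile normalization of the raw log2 signals returned them to within 5.0e-07. Its 9 columns of the authors' own comparisons were not used. Columns named "old" were matched to the Cmah-null samples by elimination and number.

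The moderated two-sided test of limma 3.58.1 (R 4.3.3) compared the groups without covariates, with Benjamini-Hochberg adjustment over all probes, and was tested on simulated data. The deposited genome positions name no build, so chromosome bands are given. The number of arrays limits the precision.

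The members and all lists were chosen with earlier results of these data known. Named genes were all member probes, list genes past 1.5-fold whose unadjusted p was under 0.05 and whose groups did not overlap, the first 3 markers of each cell type, the 5 genes most like Cd74, and Cmah. Mif, Cd44, Gbp2, Gbp3, Igtp, Cd79b, Fcrla, Thy1, Ltf, Lcn2, Mpo, Prtn3, Retnlg, Ifng, Rfx5, Nfya, Tap1, Psmb9, Slc26a5 and H2-Ea were named after their values were seen, and 1 B cell marker is not reported here. Alternatives were neqc (offset 16), median scaling, no normalization, blocks for replicate number and beads, leaving out each array, averaging Cmah-null replicates 1 and 2, a detection filter, another variance prior and the mean over probes. Values within the sets of arrays with fewer or more beads were added after seeing the data. Figures were drawn with matplotlib 3.10.9.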

Additional observations from a re-analysis of the deposited data

How the results depend on the processing

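Against 334 probes higher and 363 lower at 1.5-fold with an unadjusted p, neqc gave 784 and 698, a block for bead number 855 and 873, scaling to the same median 2409 and 79, no normalization 2501 and 56, and leaving out each array 191 to 513 and 238 to 524, lowest in both directions without WT replicate 2. The share of called probes that were higher was thus 47.9% in the main values and 96.8% under median scaling, which moved the median of detected probes from 0.03 to 0.30. The bead block gave 3 probes at an adjusted p under 0.05, and in no setting was a member among them. The difference of Cd74 with ILMN_3089584 was 2.40 without normalization, and with either Cd74 probe it stayed between 1.59 and 2.60 in every setting that used both sets of bead number, while ILMN_1221817 gave 2.89 within the 3 arrays with more beads. The median over the member genes of 0.21 became 0.48 with median scaling, 0.50 without normalization and 0.42 among probes detected on at least 3 arrays, and ran from 0.13 to 0.42 when each array was left out, highest without WT replicate 3. The 8 genes above 0 became 5 without WT replicate 1 and at most 9. H2-Aa ran from -0.81 without WT replicate 1 to 0.36 without WT replicate 3, and the H2-Ab1 probe at base 180 from -0.34 without Cmah-null replicate 2 to 0.37 without WT replicate 3. The other H2-Ab1 probes, H2-Eb1, H2-DMa and H2-DMb1 kept their sign in all 12 settings. H2-Ob changed sign in 6 settings and Ciita in 1. The lists called at most 4 genes in a direction in any setting, and of the 10 lists with no call in the main values, class II transcription alone had none in all 14 other settings. Same-numbered samples deviated with correlations of 0.02, -0.17 and 0.01, so the numbers do not pair samples; with the replicate block, 401 probes were higher and 410 lower and the member median stayed at 0.21. Probes near background, such as those of Ciita and H2-Ob, compress any difference.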
